A study of Homo sapiens with 7 samples.

Results

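The spliceosomal small nuclear RNA (snRNA) genes are short noncoding genes transcribed by RNA polymerase II (Pol II), and 10 of them were examined here for pThr4, a phosphothreonine in the repeats of the Pol II C-terminal domain. The genes were RNU1-1, RNU1-2, RNU1-3 and RNU1-4 (U1), RNU2-1 (U2), RNU4-1 and RNU4-2 (U4), RNU5A-1 and RNU5B-1 (U5) and RNU11 (U11). Their positions are those of RefSeq on GRCh38.p14, where they are 10 of 58419 genes on chromosomes 1 to 22 and X. Each gene was chosen by name and examined with 2 kb either side. The data were peak lists from pThr4 chromatin immunoprecipitation sequencing (ChIP-seq) in HEK293, an established human embryonic kidney cell line. Matched portions of nuclear lysate were treated in vitro with the active phosphatase SCP1 (SCP1 WT) or its catalytically inactive mutant (SCP1 D96A), then precipitated with antibody 6D7. Each treatment had 3 biological replicates. The IgG control was not analysed here, and the files do not state whether it entered the peak calls.

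SCP1 removes the phosphate of pSer5, which neighbours pThr4 and can hide it from the antibody. The comparison of treatments therefore asks where pThr4 becomes detectable once pSer5 is removed. U1, U2, U4 and U5 snRNAs belong to the major spliceosome, and U11 belongs to the minor spliceosome. Their genes have no introns and no poly(A) signal. Transcription starts at promoters bound by the factor SNAPc, and the RNA is cut at a 3′ box by the Integrator complex. Phosphorylation of the C-terminal domain takes part in recruiting Integrator, so these genes are a natural place to look for Pol II marks.

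Several of the genes have near or exact copies, so the sequences are shown first. Sequences were found by name for 8 of the 10 genes in the GENCODE release 44 transcripts mapped to GRCh37. RNU2-1 and RNU11 had no entry by name. The 4 RNU1 genes encode the same 164 bases, shown once with the first 10 bases in capitals, which hold most of the stretch that pairs with 5′ splice sites.
RNU1-1: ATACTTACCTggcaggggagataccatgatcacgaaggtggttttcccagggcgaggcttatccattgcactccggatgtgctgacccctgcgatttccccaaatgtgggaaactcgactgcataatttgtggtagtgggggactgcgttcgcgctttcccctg
The U4 sequences of GENCODE differ at 4 of 141 bases (97.2% identity), and capitals mark the bases at which they differ. RefSeq gives both U4 genes as 145 bp, so the sequences compared are shorter than the genes examined.
RNU4-1: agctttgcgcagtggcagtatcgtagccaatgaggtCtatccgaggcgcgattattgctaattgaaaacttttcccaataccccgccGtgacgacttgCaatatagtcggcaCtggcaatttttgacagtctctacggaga
RNU4-2: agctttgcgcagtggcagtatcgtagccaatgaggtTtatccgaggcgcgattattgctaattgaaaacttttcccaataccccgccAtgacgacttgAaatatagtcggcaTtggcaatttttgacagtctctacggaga

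How far reads can be placed at these genes was described with GRCh37, the genome at hand, at the positions that GENCODE gives on it. Each stretch of 150 bases, the read length in the labels, was searched for exact copies on both strands. For RNU1-3 and RNU1-4, 0% of the stretches within 2 kb of the gene were unique, and 0% of stretches of 300 bases were. For RNU1-1 and RNU1-2, 84.0% and 92.7% of the 150-base stretches were unique. Among those touching the gene itself the shares were 86.6% for RNU1-1 and 53.4% for RNU1-2. With stretches of 300 bases, 91.5% of the RNU1-1 window and 100% of the RNU1-2 window were unique, as were 100% of the stretches touching either gene. The single most repeated stretch in each RNU1 window occurred 9 times. For RNU4-1, RNU4-2, RNU5A-1 and RNU5B-1, 100% of the stretches were unique at both lengths. The RNU1-3 and RNU1-4 windows are therefore copies in which unique mapping is doubtful along their whole length, while the 4 U4 and U5 windows hold no exact copy of read length. RNU2 genes are known to lie in a tandem array, so a unique position for RNU2-1 is doubtful too, and its window and that of RNU11 were not analysed for copies here. Near-identical copies were not counted, and GRCh38 may differ in copy number.

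**Figure D1:**
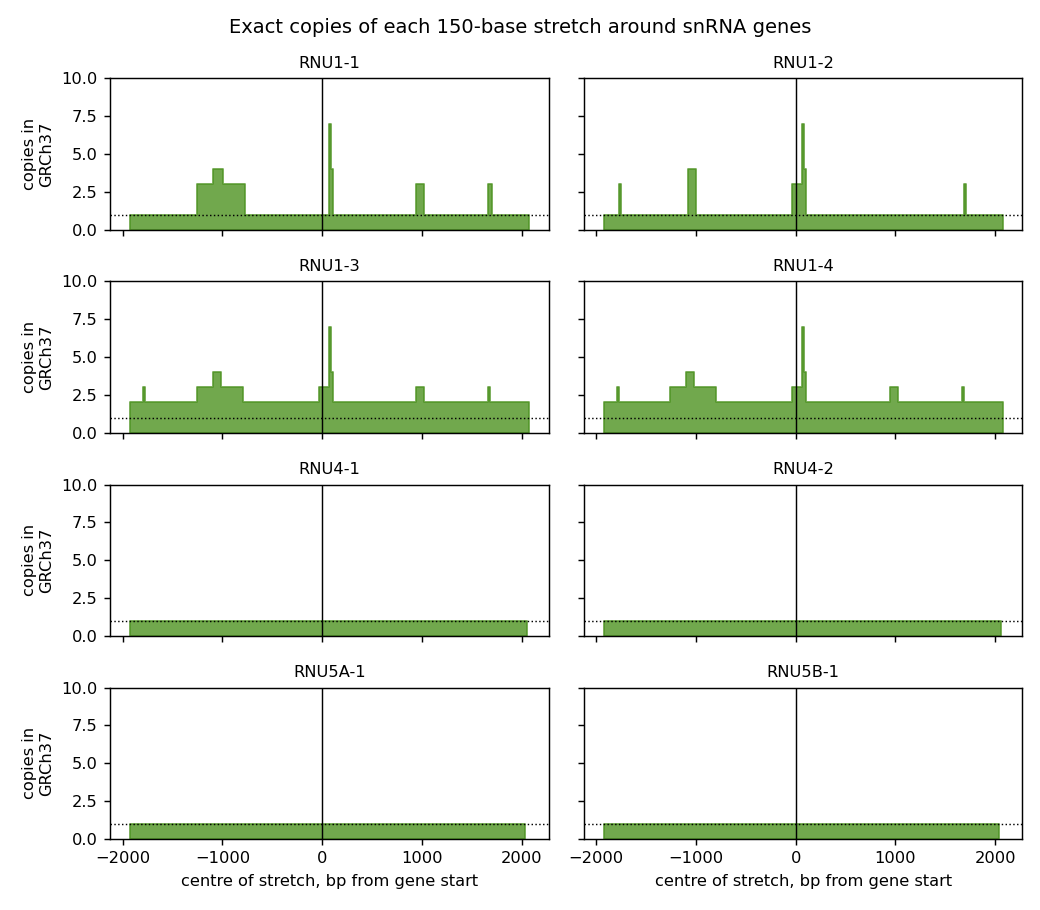
Number of exact copies in GRCh37 (vertical axis) of 150-base stretches, sampled every 20 bp, by the distance of their centre from the gene start (horizontal axis, bp, direction of transcription) for 8 snRNA genes; the dotted line marks 1 copy. RNU1-3 and RNU1-4 lie above 1 throughout, RNU1-1 and RNU1-2 rise above 1 in parts, and the U4 and U5 genes stay at 1.

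No peak was listed within 2 kb of any of the 10 genes in any of the 6 libraries. The number of members with a peak was 0 in SCP1 WT replicates 1, 2 and 3 and 0 in SCP1 D96A replicates 1, 2 and 3. The windows of RNU4-1 and RNU4-2 overlap, since the genes lie 1189 bp apart, so the windows form 9 distinct loci, and 0 of the 9 held a peak. Of the 38692 bases in these loci, 0 were covered by a peak in each library. With no peak in either group, there was no fold enrichment, p-value or distance to a gene end to list inside the windows, and no difference between treatments to test. The share of covered bases past the gene end and the strength of member peaks, both planned, have no value.

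The absence was read against the same window around all genes. With SCP1 WT, 16.3%, 11.0% and 31.6% of the 58419 genes had a peak within 2 kb in replicates 1, 2 and 3. With SCP1 D96A the shares were 5.58%, 2.81% and 5.92%. A peak in all 3 SCP1 WT and no SCP1 D96A library occurred at 3.42% of genes, and a peak in all 6 libraries at 2.39%. No peak in any library was the more common state, at 66.8% of genes, and 10 of 10 snRNA genes were in it. How reads with several placements were handled is not given, so at RNU1-3, RNU1-4 and RNU2-1 a peak may not have been detectable. Protein-coding genes, most of them far longer, had a peak within 2 kb in at least 1 library in 63.0% of cases. Among the 6932 genes of at most 200 bp, the size class of all 10 members, the share was 15.1%, and among the 149 genes typed as snRNA, which include the members, it was 8.05%. An absence among 10 short genes is thus close to what most short genes showed, and nothing particular to the snRNA genes is drawn from it.

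A gene without a listed peak is a gene at which no interval passed the cutoff of that list. The weakest peak admitted had a −log10 p-value of 3.50, 3.79 and 3.08 in SCP1 WT replicates 1, 2 and 3 and of 4.23, 4.6 and 4.2 in the SCP1 D96A libraries. The shortest listed peak was 236 bp to 258 bp wide by library, longer than any member gene, whose lengths were 117 bp to 188 bp. The peaks in each file were numbered without a gap, so no number was missing within a list. Whether intervals were removed before numbering, or a list was cut at its end, cannot be told from this. On chromosomes 1 to 22 and X the lists held 12625, 6680 and 36892 peaks in SCP1 WT replicates 1, 2 and 3. With SCP1 D96A they held 2466, 1163 and 2699. The lists give no read counts, and the depth of each library is unknown.

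The nearest listed peak lay 14.8 kb or more from every member. In SCP1 WT replicate 3, the longest list, the 10 distances ran from 14.8 kb to 35.2 kb with a median of 20.9 kb. The medians were 48.3 kb and 85.4 kb in SCP1 WT replicates 1 and 2. With SCP1 D96A they were 271 kb, 146 kb and 97.2 kb in replicates 1, 2 and 3. The median over all genes was 101 kb, 191 kb and 18.8 kb with SCP1 WT and 481 kb, 1160 kb and 474 kb with SCP1 D96A. In 5 of the 6 libraries the members' median was thus shorter than that of all genes. The median over protein-coding genes was 22.9 kb, 68.5 kb and 0 kb with SCP1 WT and 235 kb, 658 kb and 224 kb with SCP1 D96A. The distances of members share a source where genes share a nearest peak, as the RNU1, RNU4 and RNU5 genes do in several libraries. With each list reduced to its 1163 strongest peaks, the members' medians were 142, 277 and 435 kb with SCP1 WT. They were then 277, 146 and 277 kb with SCP1 D96A, beside 979 kb to 1180 kb over all genes by library. Distances given by gene below are those of the deposited lists, which are longer with SCP1 WT.

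**Figure D2:**
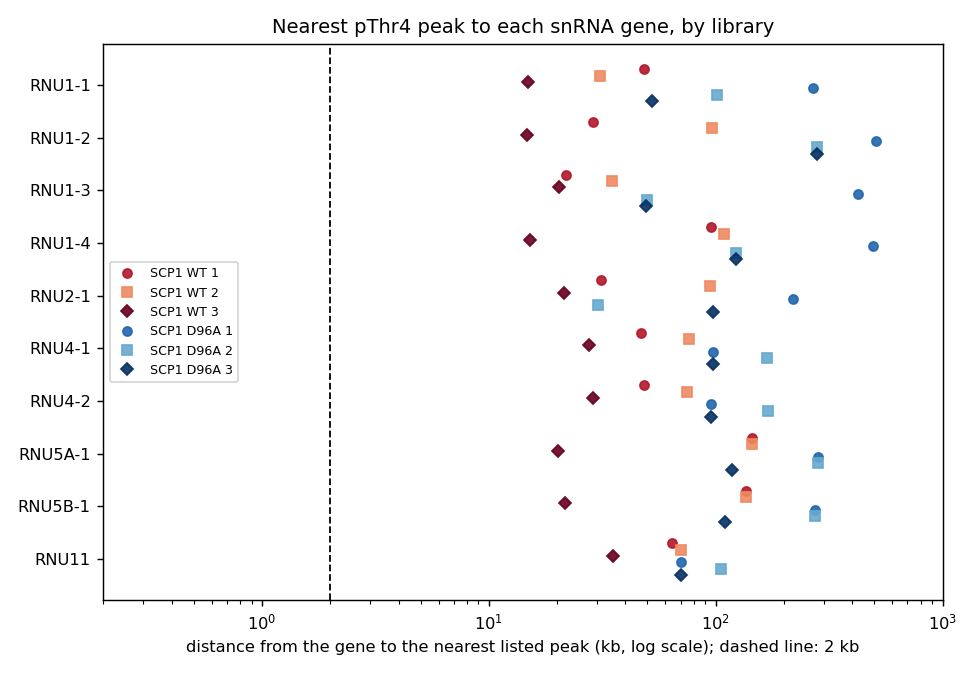
Distance in kb (log scale) from each of the 10 snRNA genes to the nearest listed peak in the 3 SCP1 WT (red) and 3 SCP1 D96A (blue) libraries, 1 point per gene and library; the dashed line marks the 2 kb window. No point lies below 14.8 kb, and SCP1 WT replicate 3 is nearest for each gene.

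The U1 genes, whose RNA recognises the 5′ splice site, lie on the short arm of chromosome 1. RNU1-1 (gene ID 26871, chromosome 1, 16514122 to 16514285, minus strand) had its nearest peaks at 48.3, 30.8 and 14.9 kb in SCP1 WT replicates 1, 2 and 3. With SCP1 D96A they lay at 270 kb, 101 kb and 52.2 kb. The closest, in SCP1 WT replicate 3, lay 14.9 kb past the gene end with a fold enrichment of 3.29 and a −log10 p-value of 4.17, outside any annotated gene. RNU1-2 (gene ID 26870, chromosome 1, 16895980 to 16896143, plus strand) had its nearest peaks at 28.7, 96.7 and 14.8 kb with SCP1 WT and at 509, 279 and 279 kb with SCP1 D96A. The SCP1 WT peaks all lay past the gene end, in CROCC in replicate 1 and in ATP13A2 in replicate 2. The replicate 3 peak had a fold enrichment of 3.07 and a −log10 p-value of 4.03.

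The fully duplicated RNU1-3 (gene ID 26869, chromosome 1, 16666785 to 16666948, minus strand) had its nearest peaks at 21.8, 35.0 and 20.4 kb with SCP1 WT, each past the gene end in CROCCP2, a pseudogene of the ciliary gene CROCC. Their fold enrichments were 2.88, 2.56 and 2.60, and their −log10 p-values 4.80, 4.32 and 3.67. With SCP1 D96A the distances were 422, 49.5 and 49.5 kb. RNU1-4 (gene ID 6060, chromosome 1, 16740516 to 16740679, plus strand), also duplicated throughout, had its nearest peaks at 95.6, 109 and 15.1 kb with SCP1 WT and at 496, 123 and 123 kb with SCP1 D96A. All of these lay before the gene start. A lncRNA gene, LOC124903859, has its nearer edge 31 bp from RNU1-4, and no peak was listed in the shared window.

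RNU2-1 (gene ID 6066, chromosome 17, 43233790 to 43233977) encodes U2, which pairs with the branch point. No strand was found for it by name, so the side of a peak is given by coordinate. The nearest peaks lay at lower coordinates in all 6 libraries, at 31.2, 94.8 and 21.4 kb with SCP1 WT and at 220, 30.3 and 97.2 kb with SCP1 D96A. Those of SCP1 WT replicates 1 and 3 and SCP1 D96A replicate 2 overlapped NBR1, with fold enrichments of 3.28, 3.12 and 4.09. The peak of SCP1 WT replicate 3 also overlapped TMEM106A. Here the distances of the groups overlapped.

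RNU4-1 (gene ID 26835, chromosome 12, 120293093 to 120293237) and RNU4-2 (gene ID 26834, chromosome 12, 120291759 to 120291903) encode U4, which holds U6 inactive until the spliceosome is activated. Both are on the minus strand, both overlap the annotated span of SIRT4, which runs on the plus strand, and both windows are free of exact copies. For RNU4-1 the nearest peaks lay at 47.0, 75.9 and 27.5 kb with SCP1 WT and at 96.9, 168 and 97.1 kb with SCP1 D96A. For RNU4-2 they were the same peaks, at 48.3, 74.6 and 28.9 kb and at 95.5, 169 and 95.8 kb. With SCP1 WT these peaks had fold enrichments of 3.68, 3.47 and 3.32, and they lay in MSI1, in PXN and outside any gene. The start of SIRT4 lies in both windows, and no peak was listed there in any library.

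RNU5A-1 (gene ID 26831, chromosome 15, 65296051 to 65296167, plus strand) and RNU5B-1 (gene ID 26832, chromosome 15, 65304677 to 65304793, plus strand) encode U5, which aligns the exon ends, and no other annotated gene lies in their windows. They are 8509 bp apart, and no peak was listed in the interval between them. For RNU5A-1 the nearest peaks lay at 144, 145 and 20.1 kb with SCP1 WT and at 282, 282 and 118 kb with SCP1 D96A. For RNU5B-1 they lay at 136, 137 and 21.6 kb and at 273, 273 and 109 kb. The distances of the groups overlapped at both U5 genes. They were the members farthest from a peak in SCP1 WT replicates 1 and 2. In SCP1 D96A replicates 1 and 2 the nearest peak was at the end of INTS14, a subunit gene of Integrator, with fold enrichments of 4.13 and 3.82.

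RNU11 (gene ID 26824, chromosome 1, 28648600 to 28648734) encodes U11, which recognises the 5′ splice site of minor introns. It lies inside the lncRNA gene TAF12-DT and 331 bp from TAF12, so its window also holds the start of that protein-coding gene on the minus strand. Its nearest peaks lay at 64.1, 70.4 and 35.2 kb with SCP1 WT and at 70.4, 106 and 70.5 kb with SCP1 D96A. The replicate 3 peak of SCP1 WT lay in the body of TAF12, with a fold enrichment of 3.07 and a −log10 p-value of 3.75. The 70.4, 70.4 and 70.5 kb peaks of SCP1 WT replicate 2 and SCP1 D96A replicates 1 and 3 all lay in TRNAU1AP. As at RNU2-1 and the U5 genes, the groups overlapped.

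Over all 10 genes the fold enrichments of the nearest peaks ran from 2.48 to 4.19 in the SCP1 WT libraries and from 2.78 to 4.19 in the SCP1 D96A libraries, on both sides of the medians of all listed peaks, which were 3.11 to 3.53 and 3.84 to 3.89 by library. These values were not compared between groups, since the depth behind each ratio is unknown.

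The window was then widened to ask at what distance peaks appear. Within 5 kb and 10 kb, 0 of 10 members had a peak in each library. The shares of all genes within 5 kb were 19.2%, 13.1% and 36.6% with SCP1 WT and 7.0%, 3.63% and 7.39% with SCP1 D96A. The shares of all genes within 10 kb were 22.6%, 15.7% and 42.7% with SCP1 WT and 8.5%, 4.43% and 9.05% with SCP1 D96A. Within 20 kb, 3 members had a peak in SCP1 WT replicate 3 (RNU1-1, RNU1-2 and RNU1-4) and 0 in every other library, beside 50.8% of all genes in that replicate. In SCP1 WT replicates 1 and 2 the shares of all genes within 20 kb were 27.7% and 19.6%. With SCP1 D96A they were 10.9%, 5.87% and 11.6%. Within 50 kb, a distance chosen after the smaller windows were seen to be empty, the number of members with a peak was 6, 2 and 10 in SCP1 WT replicates 1, 2 and 3. The shares of all genes at this distance were 38.5%, 28.2% and 64.3%. With SCP1 D96A it was 0, 2 and 1, beside 16.8%, 9.63% and 17.5% of all genes. Members that share a peak count separately here, as RNU4-1 and RNU4-2 did in SCP1 WT replicates 1 and 3. The mean number of members was 6 ± 4 (SD, n = 3) with SCP1 WT. It was 1 ± 1 (SD, n = 3) with SCP1 D96A, 5 members lower. The groups touched at 2 members, and the difference was not beyond the spread (two-sided exact permutation test, p = 0.2, where 0.1 is the smallest possible). When each list was reduced to its 1163 strongest peaks, the counts within 50 kb were 1, 0 and 0 with SCP1 WT and 0, 2 and 0 with SCP1 D96A, a difference of -0.333. The shares of all genes were then 10.6%, 10.4% and 10.6% with SCP1 WT and 10.3%, 9.63% and 10.3% with SCP1 D96A. Without SCP1 WT replicate 3 the difference within 50 kb, with the lists as deposited, was 3 members. Within 100 kb the counts were 8, 7 and 10 with SCP1 WT and 3, 2 and 6 with SCP1 D96A. Here the groups did not touch. The shares of all genes were 49.8%, 38.3% and 75.2% and 24.2%, 14.4% and 24.8%. With equal peak number the counts within 100 kb were 2, 0 and 0 and 1, 2 and 2, beside 14.4% to 15.5% of all genes. The counts within 100 kb were not tested.

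**Figure D3:**
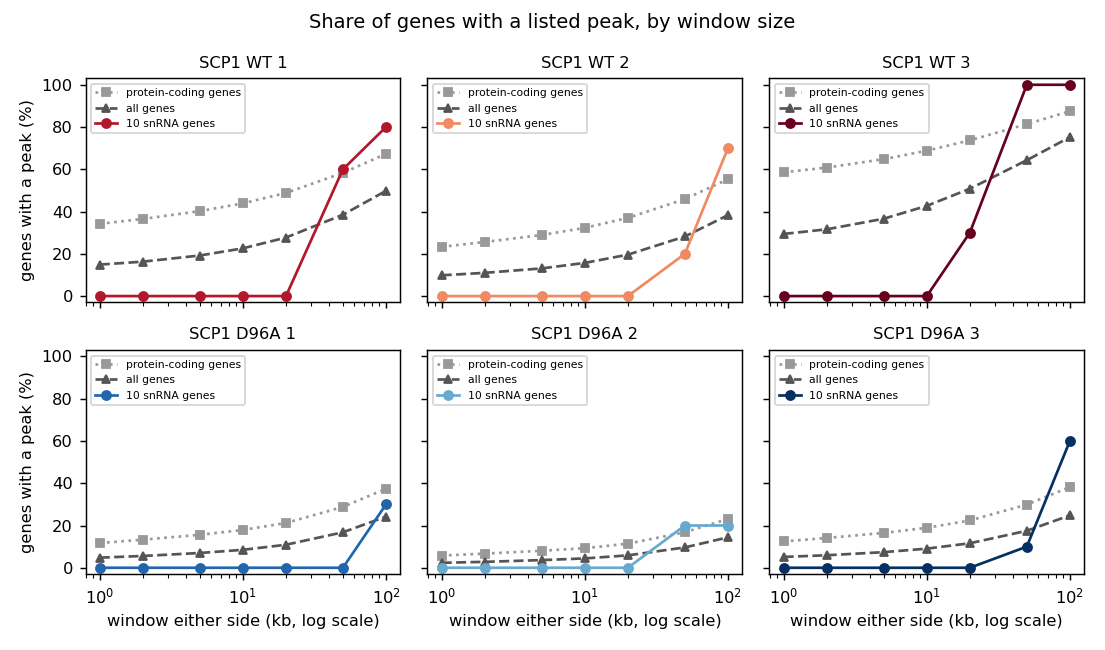
Share of genes with a listed peak (vertical axis, %) by window size either side of the gene (horizontal axis, kb, log scale) in each library, for the 10 snRNA genes (coloured), all genes (dashed) and protein-coding genes (dotted). The snRNA line stays at 0 up to 10 kb in all 6 libraries and first leaves 0 at 20 kb in SCP1 WT replicate 3.

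Other genes of the same kind were taken from a list that holds 32 further Pol II snRNA genes, most of them variant U1 genes. A peak within 2 kb was listed at 3, 2 and 4 of these in SCP1 WT replicates 1, 2 and 3 and at 2, 2 and 2 in the SCP1 D96A replicates. Among all genes of at most 200 bp the shares were 6.81%, 4.54% and 13.8% with SCP1 WT and 2.35%, 1.59% and 2.52% with SCP1 D96A, and nothing particular to the list is read from its counts. RNU7-1 and RNU12 accounted for every one of the SCP1 D96A counts. RNU7-1 (chromosome 12, 6943816 to 6943878, plus strand) encodes U7, which directs histone mRNA 3′-end processing. Its peaks had fold enrichments of 3.92, 3.52 and 4.99 with SCP1 WT and 3.57, 3.30 and 3.97 with SCP1 D96A. In 5 libraries they ended between -576 bp and -450 bp relative to the gene start, and in SCP1 WT replicate 3 the peak ran over the gene and into C12orf57. RNU12 (chromosome 22, 42615244 to 42615393) encodes U12, the branch point snRNA of minor introns. Its peaks had fold enrichments of 3.72, 4.38 and 4.19 with SCP1 WT and 4.20, 3.85 and 4.51 with SCP1 D96A, and lay over CYB5R3 in each library. The gene itself was covered only by the 6742 bp peak of SCP1 WT replicate 3. A peak in such a window cannot be assigned to the snRNA gene or to its neighbour.

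Among the other genes of this list, a peak over the gene itself occurred in single libraries only. RNU4ATAC, the minor spliceosome counterpart of U4, was covered by a 439 bp peak in SCP1 WT replicate 1, with a fold enrichment of 2.89 and a −log10 p-value of 4.04. It lies within CLASP1. The variant U1 gene RNVU1-6 was covered by a 279 bp peak in SCP1 WT replicate 3, with a fold enrichment of 3.30 and a −log10 p-value of 4.25. The remaining gene of the list with a peak, RNVU1-3, had it 1660 bp past the gene end in SCP1 WT replicate 3. These 3 genes are named after their values were seen.

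Among 9 Pol III genes whose promoters are also bound by SNAPc, a peak within 2 kb was listed at 3, 2 and 3 in the SCP1 WT and at 1, 0 and 0 in the SCP1 D96A replicates. The shares of all genes were 16.3%, 11.0% and 31.6% and 5.58%, 2.81% and 5.92%. Among genes of at most 200 bp they were 6.81%, 4.54% and 13.8% and 2.35%, 1.59% and 2.52%, though RN7SK and RMRP are longer than that. RMRP, the RNA of RNase MRP (chromosome 9, 35657750 to 35658019, minus strand), had peaks over the gene with fold enrichments of 4.56, 4.66 and 4.22 in the SCP1 WT libraries and 4.15 in SCP1 D96A replicate 1. They began between -1033 bp and -593 bp relative to the gene start, over CCDC107. RN7SK, the scaffold that holds the kinase P-TEFb inactive (chromosome 6, 52995620 to 52995951, plus strand), had a peak of 243 bp and 246 bp inside the gene in SCP1 WT replicates 1 and 2. Their fold enrichments were 5.51 and 4.88, and they ranked 221 of 12625 and 286 of 6680 by −log10 p-value. No peak was listed at RN7SK in the other 4 libraries. RNU6-9 had a peak in 2 libraries and RNU6ATAC in 1, all with SCP1 WT and outside the gene. RN7SK, RNU6-9 and RNU6ATAC are likewise named after their values were seen. The RN7SK peaks are examples of listed peaks that lie wholly on a small RNA gene.

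**Figure D4:**
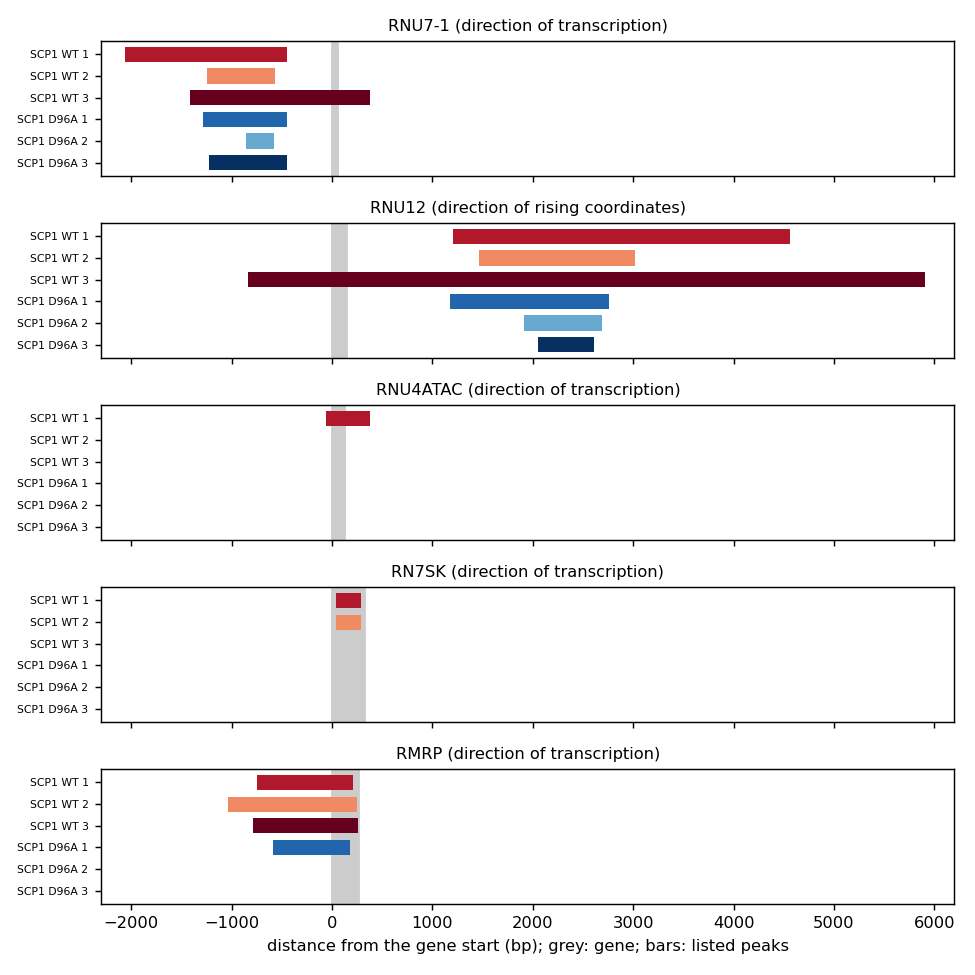
Listed peaks (bars) of the 6 libraries around 5 other small RNA genes, by distance from the gene start (horizontal axis, bp), with the gene in grey. Peaks at RNU7-1 and RNU12 lie beside the gene in all libraries but SCP1 WT replicate 3, while those at RN7SK lie inside it in 2 SCP1 WT libraries and those at RMRP overlap it in 4 libraries.

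The protein-coding genes of snRNA synthesis are far longer than the members and were read against all protein-coding genes. Of these, 36.5%, 25.6% and 60.8% had a peak within 2 kb with SCP1 WT and 13.3%, 6.69% and 14.1% with SCP1 D96A. Of 5 SNAPc genes, 3, 3 and 5 had a peak within 2 kb in the SCP1 WT replicates and 3, 2 and 3 in the SCP1 D96A replicates. SNAPC4 and SNAPC5 had peaks in all 6 libraries and SNAPC3 in 5. The SNAPC3 peaks of SCP1 D96A replicates 1 and 3 lay outside the gene, 1134 bp and 1409 bp past its end, over PSIP1. The peak at the start of SNAPC5, which also covers part of RPL4, had fold enrichments of 4.69, 4.63 and 5.03 with SCP1 WT and 4.0, 4.22 and 4.42 with SCP1 D96A. Of 15 Integrator genes, 9, 6 and 12 had a peak with SCP1 WT and 2, 2 and 4 with SCP1 D96A. INTS11, the endonuclease subunit, and INTS14 had peaks in all 6 libraries, INTS5 and INTS15 in 4, and INTS1 and INTS3 in the 3 SCP1 WT libraries only. Over all genes, 2.39% had a peak in all 6 libraries and 3.42% in the 3 SCP1 WT libraries only. These shares include short and noncoding genes and were not taken over protein-coding genes alone. They are thus no like reference for these patterns, and nothing is read from the comparison. At INTS3 the peaks of SCP1 WT replicates 1, 2 and 3 near the gene end lay 289, 420 and 110 bp past it, over SLC27A3. Replicate 3 had a further peak inside INTS3. The INTS5 peak of SCP1 D96A replicate 3 lay 191 bp past the gene end, over GANAB. The peaks at INTS14 reached the gene end in each library, with fold enrichments of 3.32, 4.27 and 3.99 in the SCP1 WT and 4.13, 3.82 and 3.93 in the SCP1 D96A replicates, and also covered part of HACD3.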

How the data were processed

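Per the labels, chromatin from formaldehyde-fixed HEK293 cells was sonicated and sequenced as 150-bp paired-end reads, and the submitters' processing notes name FastQC, cutadapt 4.6, Bowtie2 2.5.2 and hg38. The deposited files hold 1 broad-peak list per library in the layout of MACS. The authors deposited for each peak a fold enrichment, which is a ratio over the library's own background, a −log10 p-value and a −log10 q-value. The deposited score was not used. Caller version, handling of reads with several placements, read filters and control are not given in the sources used here. The methods of the paper at hand describe another phosphatase and were not followed. Depth is unknown, and precision rests on 3 replicates per group.

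A peak counted for a gene if it overlapped the gene with 2 kb either side by at least 1 bp. Gene positions came from RefSeq (GRCh38.p14), without unplaced pieces, and strand by name from GENCODE release 44, whose GRCh37 coordinates served only the search for copies. Strand was found for 8 of 10 members. Distances run to the nearer gene edge, so those to the gene end are longer by less than the gene's length where the peak lies before the start. The groups were tested by exact permutation, two-sided, over the 20 assignments of libraries (scipy 1.17.1, pandas 2.3.3), where 0.1 is the smallest p. The labels call replicates biological and name no cultures, so p-values measure the spread between these libraries. Alternatives were a −log10 q-value of at least 2, equal peak number, a common −log10 p-value of at least 6, windows of 1 kb and 5 kb, an overlap of 200 bp, left-out libraries, a replicate block and leaving out RNU1 and RNU2. The distance search was tested on simulated data. Named genes were all 10 members, neighbours in their windows, and list genes with a peak in at least 3 libraries. Members and lists were chosen with earlier results of these data known. The sequences of the U5 genes are not reported here.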

Additional observations from a re-analysis of the deposited data

How the results depend on the processing

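The counts of 0 members, 0 loci and 0 covered bases within 2 kb were the same under every alternative run. These were the q-value cutoff (−log10 of 2 or more), equal peak number, the common p cutoff, windows of 1 kb, 5 kb and, added after seeing the data, 10 kb, the leaving out of each library, the replicate block, and the members without RNU1 and RNU2. The overlap of 200 bp was run for members and loci. Where all values are 0 these alternatives carry no information about stability beyond the window size, and no difference could be tested. For the share past the gene end and for peak strength no alternative gave a value.

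The difference in members with a peak within 50 kb, 5 members, was chosen after seeing the data. It reversed to -0.333 with equal peak number and moved to 0.667 at the common p cutoff. Leaving out 1 library gave 3 to 7, with the lowest value without SCP1 WT replicate 3. The value was 2 under the q-value cutoff and 2.33 without RNU1 and RNU2. Peak names carry the number 10 in replicates 1 and 2 and 5 in replicate 3, and within replicates 1 and 2 the value was 3. Under the replicate block it was 5 (exact sign-flip test, p = 0.5, with 0.25 the smallest possible). Same-numbered libraries did not deviate together over all genes, with correlations of 0.0197, -0.0126 and -0.0205, and the labels mention matched aliquots without saying that a replicate number marks a shared lysate. What the absence of counts and depth limits is the reading of an unlisted gene: a signal below the cutoff of a list cannot be told apart from no signal. At RNU1-3, RNU1-4 and RNU2-1, where unique mapping is doubtful, neither can be told apart from reads left out for want of a unique place.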
